A study of Homo sapiens with 9 samples.

Results

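Messenger RNA of cells labelled as R-HepG2, an insulin-resistant form of the hepatoma line HepG2, was compared after soluble insulin and after plain medium, on 3 one-colour Affymetrix arrays for each, which are 6 of the 9 arrays of the study. Probe sets that name 1 gene and passed a brightness filter entered the comparison, and the brightest of each gene stood for that gene. In the medium group, cells labelled R-HepG2 were starved of serum overnight and then kept in fresh DMEM for 4 h. In the insulin group, the same steps were followed with dissolved insulin at 40 ug/ml in place of the plain medium. The other 3 arrays came from cells given biomineralized insulin (BI) at the same concentration. They added to the estimate of the spread between arrays. They also entered the mean brightness by which probe sets were filtered and chosen, and a few values of BI are set beside those of insulin. The protocols name R-HepG2 for all groups, but the cell line tag is R-HepG2 on medium samples and HepG2 on treated samples, and every sample description reads HepG2. A difference of cell form between the groups, if there was one, cannot be told apart from the effect of insulin. The labels leave unsaid whether each replicate was its own culture. The p-values therefore reflect only how far these samples differ, a spread that may be technical.

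Insulin binds its receptor at the cell surface and signals through receptor substrates, phosphoinositide 3-kinase and AKT. In liver cells this route holds back gluconeogenic genes through FOXO factors, raises lipogenic and sterol genes through SREBP factors, and activates mTORC1, which can feed into ATF4, the transcription factor of the amino acid response. ATF4 also responds to starvation of amino acids and to stress of the endoplasmic reticulum, and its known targets include asparagine synthetase, serine synthesis enzymes, amino acid transporters and many aminoacyl-tRNA synthetases.

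Median values per array ran from 5.46 to 5.49 log2 over the 6 arrays, and arrays correlated across probe sets at 0.9977 to 0.9984 within a group and at 0.9975 to 0.9982 between insulin and medium. Most hepatocyte markers were dim, which goes against the hepatoma label, so the cells are called here only by that label. Of 16 hepatocyte markers, 6 reached the brightness threshold of 4.74 log2, and the array means of the 16 ranged from 4.20 to 4.33 log2 on medium and from 4.22 to 4.28 log2 on insulin arrays. The albumin gene ALB stood at 3.29 ± 0.02 log2 on medium and 3.49 ± 0.09 on insulin arrays (SD, n = 3), and AFP, APOB, APOA2 and FGG were also below the threshold. Among all probe sets on the array ALB lay at the 17.2 percentile, AFP at the 7.69 and APOB at the 5.46. The 6 bright hepatocyte markers included CEBPA, at 6.43 ± 0.08 log2 on medium arrays and the 60.2 percentile. The others were APOA1 at 5.77, AHSG at 5.245, TTR at 5.15, TF at 4.885 and FOXA2 at 4.825 log2 on medium arrays. Of 8 markers of lung epithelium, SFTPA1, SFTPD and SCGB1A1 were dim, at 2.79, 3.875 and 3.185 log2 on medium arrays. The other 5 reached the threshold, with NKX2-1 at 6.14 ± 0.05 and NAPSA at 6.43 ± 0.05 log2 on medium arrays (percentiles 59.5 and 61.4). Among markers of fibroblasts 5 of 6 did so, of endothelium 4 of 4, of squamous epithelium 2 of 3, of immune cells 1 of 5 and of intestine 1 of 4. The endothelial markers lay between the 42.1 and 51.1 percentile, little above the threshold, which leaves out the dimmest 40%. The array means of each of these lists overlapped between the groups, except those of the squamous list, which ran from 4.42 to 4.61 log2 on medium and from 4.63 to 4.66 log2 on insulin arrays. The part of such cells in the results was not tested.

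Few genes were called between the insulin and medium arrays, and the called changes were small. Of 18132 genes with a usable probe set, 12239 were bright enough on average over the 9 arrays to be tested, and 5893 were not. A gene was called changed where the limma p-value, adjusted over all tested genes, was under 0.05. This held for 300 genes, 2.45% of those tested. Higher calls numbered 153 (1.25%) and lower calls 147 (1.2%), and 1928 genes had an unadjusted p under 0.05. The median size of a called change was 0.21 log2 and the smallest 0.10. A change of at least 1.2-fold was reached by 83 called genes, 42 higher and 41 lower. Only 2, both lower, passed 1.5-fold. In 299 of the 300 the 3 insulin values lay wholly above or below the 3 medium values. Over all tested genes this held for 2236, or 18.3%. The change over all genes had a median of 0.0073 log2 and quartiles of -0.05 and 0.06, so directions below are close to those relative to the median gene. Features of the arrays and of the processing limit these counts. First, actin gave a 3' minus 5' signal, a measure of RNA integrity and labelling, of 3.02 ± 0.06 log2 on medium and 3.19 ± 0.08 on insulin arrays (SD, n = 3) with no overlap (exact permutation test, two-sided p = 0.1, which is the lowest value possible with 3 arrays a group, and 0.6 adjusted over 6 control tests). The same measure for GAPDH differed by 0.0042 log2 (exact p = 0.8). The part of this in the results was not tested. Second, single arrays carried much of the count: leaving out medium replicates 1 and 2 in turn gave 187 and 62, and leaving out insulin replicates 1 and 3 in turn gave 145 and 57.

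Gene lists of 31 pathways, complexes and responses were counted. The 4 lists that hold the amino acid response were called in 1 direction only: cytosolic aminoacyl-tRNA synthetases, enzymes of amino acid and one-carbon metabolism, amino acid transporters, and ATF4 regulators with stress factors. Together they hold 81 genes, of which 76 were tested and the others were dim or had no probe set with 1 gene. Of the 76, 26 fell (34.2%, against 1.2% of all genes called lower) and none was called higher by limma (5 higher and 44 lower at an unadjusted p under 0.05). Their median change was -0.13 log2, and 60 of the 76 values were negative. These 26 genes made up 17.7% of all lower calls. The number called lower was 17 and 12 when medium replicates 1 and 2 were left out in turn, and 16 and 12 when insulin replicates 1 and 3 were, and the median stayed between -0.15 and -0.12 under all alternatives run. With centring on the poly-A spike-ins 3 of the 76 were called lower, and with a variance model without an intensity trend 6 were. These lists are known ATF4 targets in large part and were assembled with earlier results of these data known, so their common direction is a description.

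**Figure D1:**
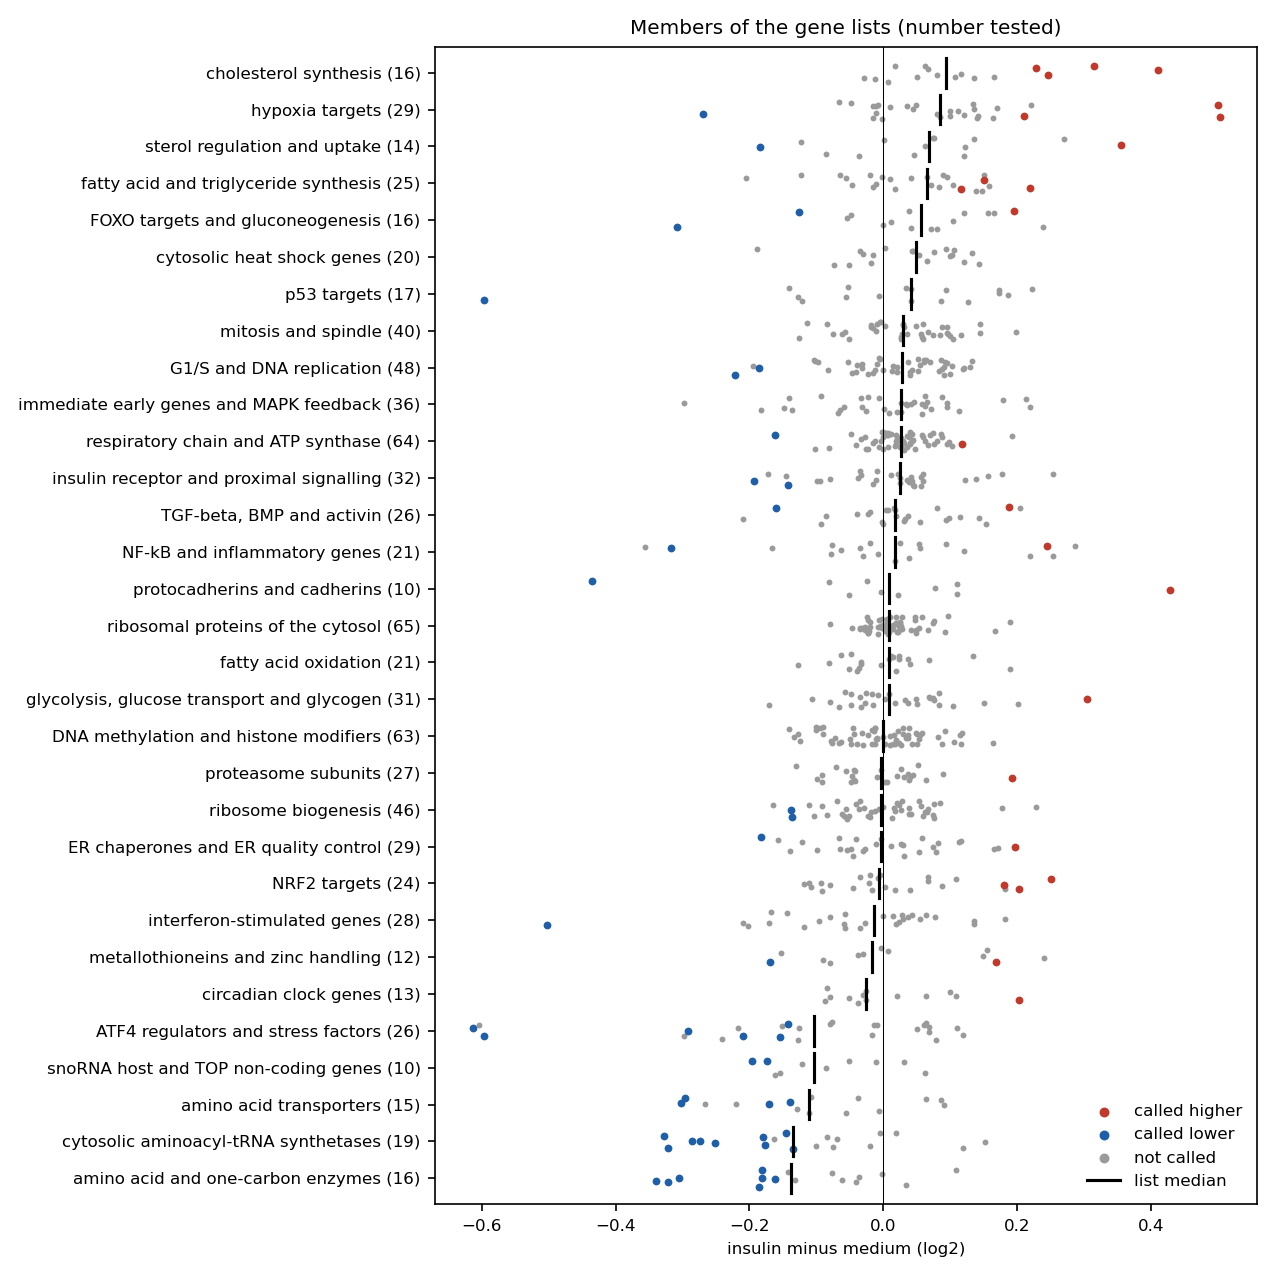
Change of each tested member of the 31 gene lists, as insulin minus medium on the log2 scale. Points are genes, red where called higher, blue where called lower and grey where not called, and black bars mark list medians. The 4 lists of the amino acid response and the list of snoRNA host genes lie lowest, with medians between -0.14 and -0.10.

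Aminoacyl-tRNA synthetases load each amino acid onto its transfer RNA. Of 20 cytosolic synthetase genes 19 were tested, 9 fell and none was called higher by limma (2 higher and 13 lower at an unadjusted p under 0.05), with a list median of -0.13 log2. WARS1, the tryptophan enzyme, read 10.40, 10.48 and 10.45 log2 on medium and 10.11, 10.17 and 10.07 on insulin arrays, and fell by 0.33 ± 0.05 (SE; adjusted p = 0.00231). AARS1, the alanine enzyme, read 10.54, 10.49 and 10.51 log2 on medium and 10.13, 10.25 and 10.19 on insulin arrays, and fell by 0.32 ± 0.05 (adjusted p = 0.00309). SARS1, the serine enzyme, read 11.15, 11.11 and 11.09 log2 on medium against 10.81, 10.90 and 10.77, and fell by 0.29 ± 0.04 (adjusted p = 0.00231). In all 3 genes the groups lay apart by several times the spread within a group. MARS1, the methionine enzyme, fell by 0.27 ± 0.04 log2 (adjusted p = 0.00309), although 2 of its 5 probe sets pointed the other way, at 0.28 and 0.07. GARS1, the glycine enzyme, fell by 0.18 ± 0.03 (adjusted p = 0.00534). The remaining called members, named after their values were seen, were CARS1 (-0.25), LARS1 (-0.18), IARS1 (-0.14) and TARS1 (-0.13), each with at least 3 probe sets of 1 sign. At the other end, HARS1 stood at 0.15 ± 0.04 (adjusted p = 0.0730) and QARS1 at 0.12 (adjusted p = 0.165), neither called. The calls of WARS1, AARS1, SARS1, MARS1 and GARS1 held when any array was left out, and the count of the list was 5 without medium replicate 2.

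**Figure D2:**
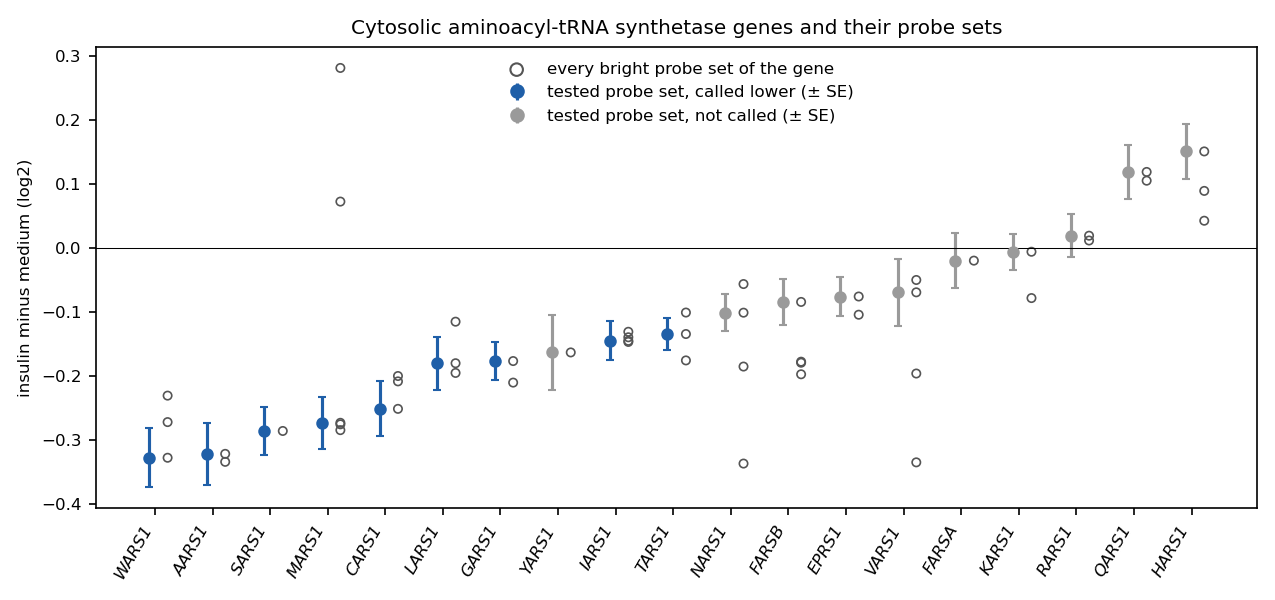
Change of the 19 tested cytosolic synthetase genes, insulin minus medium on the log2 scale, ordered from lowest to highest. Filled points are the tested probe set with its SE (blue called lower, grey not called), and open points are all bright probe sets of the same gene. All filled blue points lie below 0, and MARS1 has 2 open points above it.

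Enzymes of amino acid and one-carbon metabolism followed the same direction. Of 20 genes 16 were tested and 7 fell (1 higher and 9 lower at an unadjusted p under 0.05, none called higher by limma), with a median of -0.14 log2. ASNS, which makes asparagine, read 12.26, 12.20 and 12.18 log2 on medium and 11.92, 11.90 and 11.90 on insulin arrays, and fell by 0.31 ± 0.04 (adjusted p = 0.00187). All 4 of its probe sets were called lower in a separate fit over probe sets, at -0.25 to -0.40. PCK2, the mitochondrial phosphoenolpyruvate carboxykinase, read 9.64, 9.70 and 9.66 log2 on medium against 9.28, 9.44 and 9.26, and fell by 0.34 ± 0.06 (adjusted p = 0.00898). GOT1, the cytosolic aspartate aminotransferase, read 9.20, 9.19 and 9.17 log2 against 8.84, 8.91 and 8.85, and fell by 0.32 ± 0.05 (adjusted p = 0.00529). PHGDH, which opens serine synthesis, fell by 0.18 ± 0.04 log2 (adjusted p = 0.0255), and ASS1, argininosuccinate synthase, fell by 0.16 ± 0.03 (adjusted p = 0.0216). CTH, which makes cysteine, and PYCR1, of proline synthesis, were called at -0.18 and -0.19, named after their values were seen.

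Leaving out arrays changed the count of the enzymes. The list had 3 lower calls with medium replicate 1, medium replicate 2 or insulin replicate 1 left out, and 2 with insulin replicate 3 left out. The calls of ASNS and GOT1 held without any single array. PCK2 lost its call when medium replicate 2 (adjusted p = 0.0700) or insulin replicate 3 (adjusted p = 0.0706) was left out. For PHGDH the adjusted p rose to between 0.0707 and 0.132 without medium replicate 1, medium replicate 2, insulin replicate 1 or insulin replicate 3. For ASS1 it rose to between 0.0574 and 0.131 without medium replicate 1, medium replicate 3, insulin replicate 1 or insulin replicate 3.

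Serine synthesis also shows how far a gene's probe sets can part. PSAT1, the second enzyme of that route, was chosen after its values were seen. Its brightest probe set, at 12.4 log2 on medium, changed by 0.03 and was not called (adjusted p = 0.877). Of its 8 bright probe sets 6 were negative, down to -0.48, and 4 of these were called lower in the fit over probe sets. SHMT2 and MTHFD2, mitochondrial one-carbon enzymes also chosen after the fact, stood at -0.13 (adjusted p = 0.0601) and -0.06 (adjusted p = 0.473) by their brightest probe set, while 2 of the 4 probe sets of SHMT2 and 1 of the 5 of MTHFD2 were called lower.

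Among 15 tested amino acid transporter genes, 4 fell and none was called higher by limma (none higher and 9 lower at an unadjusted p under 0.05), with a median of -0.11 log2. SLC1A5, a carrier of glutamine and other neutral amino acids, read 9.91, 9.91 and 9.90 log2 on medium and 9.62, 9.62 and 9.56 on insulin arrays, and fell by 0.30 ± 0.04 (adjusted p = 0.00260). All 3 of its probe sets were called lower. SLC1A4, a related carrier, read 8.44, 8.48 and 8.38 log2 against 8.15, 8.19 and 8.08, and fell by 0.30 ± 0.06 (adjusted p = 0.0147). SLC3A2, the heavy chain shared by several heteromeric transporters, fell by 0.14 ± 0.03 log2 (adjusted p = 0.0217), and all 7 of its probe sets were negative, 6 of them called lower. SLC7A1, a carrier of arginine and lysine, fell by 0.17 ± 0.04 log2 (adjusted p = 0.0449). SLC7A11, the cystine carrier of the same heteromeric family and named after its value was seen, stood at -0.11 and was not called (adjusted p = 0.137). The call of SLC1A5 held without any single array. The list had 1 lower call with medium replicate 2 or insulin replicate 3 left out, and 2 with medium replicate 3 or insulin replicate 1 left out. SLC3A2 lost its call without medium replicate 2, medium replicate 3, insulin replicate 1 or insulin replicate 3 (adjusted p = 0.0609 to 0.116). SLC7A1 was not called when any array was left out (adjusted p = 0.0611 to 0.204).

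Of 26 ATF4 regulators and stress factors, all tested, 6 fell and none was called higher by limma (2 higher and 13 lower at an unadjusted p under 0.05), with a median of -0.10 log2. NIBAN1, a stress-responsive gene, read 10.34, 10.42 and 10.19 log2 on medium and 9.81, 9.70 and 9.60 on insulin arrays, and its 0.61 ± 0.06 fall (adjusted p = 0.000277) was seen in all 3 probe sets, at -0.36 to -0.64. GDF15, which encodes a stress-induced secreted factor, read 9.76, 9.79 and 9.66 log2 against 9.09, 9.22 and 9.12, and fell by 0.60 ± 0.09 (adjusted p = 0.00342). NUPR1, a stress-induced chromatin protein, fell by 0.29 ± 0.06 (adjusted p = 0.0169), and EIF4EBP1, a translation repressor held inactive by mTORC1, fell by 0.21 ± 0.03 (adjusted p = 0.00417). CEBPG, a dimer partner of ATF4, fell by 0.15 ± 0.04 (adjusted p = 0.0338). The remaining lower call, TRIB3, is also in the insulin receptor list and is described there.

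The transcript of ATF4 itself did not move with them. It read 12.74, 12.74 and 12.73 log2 on medium and 12.71, 12.77 and 12.70 on insulin arrays, a change of -0.02 ± 0.03 (adjusted p = 0.839), with overlapping groups. ATF4 had 1 bright probe set only, of the cross-hybridizing type, so no other probe set could be set beside it. Other members named after their values were seen differed in size and spread. DDIT3, a stress factor gene downstream of ATF4, changed by -0.01 (adjusted p = 0.948), CHAC1, which degrades glutathione, by 0.07 and SESN2, a stress-induced mTORC1 inhibitor, by 0.05. FGF21, a secreted hormone gene, read 7.52, 7.69 and 7.36 log2 on medium and 6.94, 6.94 and 6.88 on insulin arrays, a change of -0.60 ± 0.21 that was not called (adjusted p = 0.161). ATF3 stood at -0.30 ± 0.08 (adjusted p = 0.0721). The calls of NIBAN1, GDF15 and EIF4EBP1 held without any single array. The list had 3 lower calls without medium replicate 2, insulin replicate 1 or insulin replicate 3. NUPR1 was lost in those same 3 cases (adjusted p = 0.0703 to 0.113), and CEBPG kept its call only without insulin replicate 2 (adjusted p = 0.0600 to 0.197 without each other array).

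**Figure D3:**
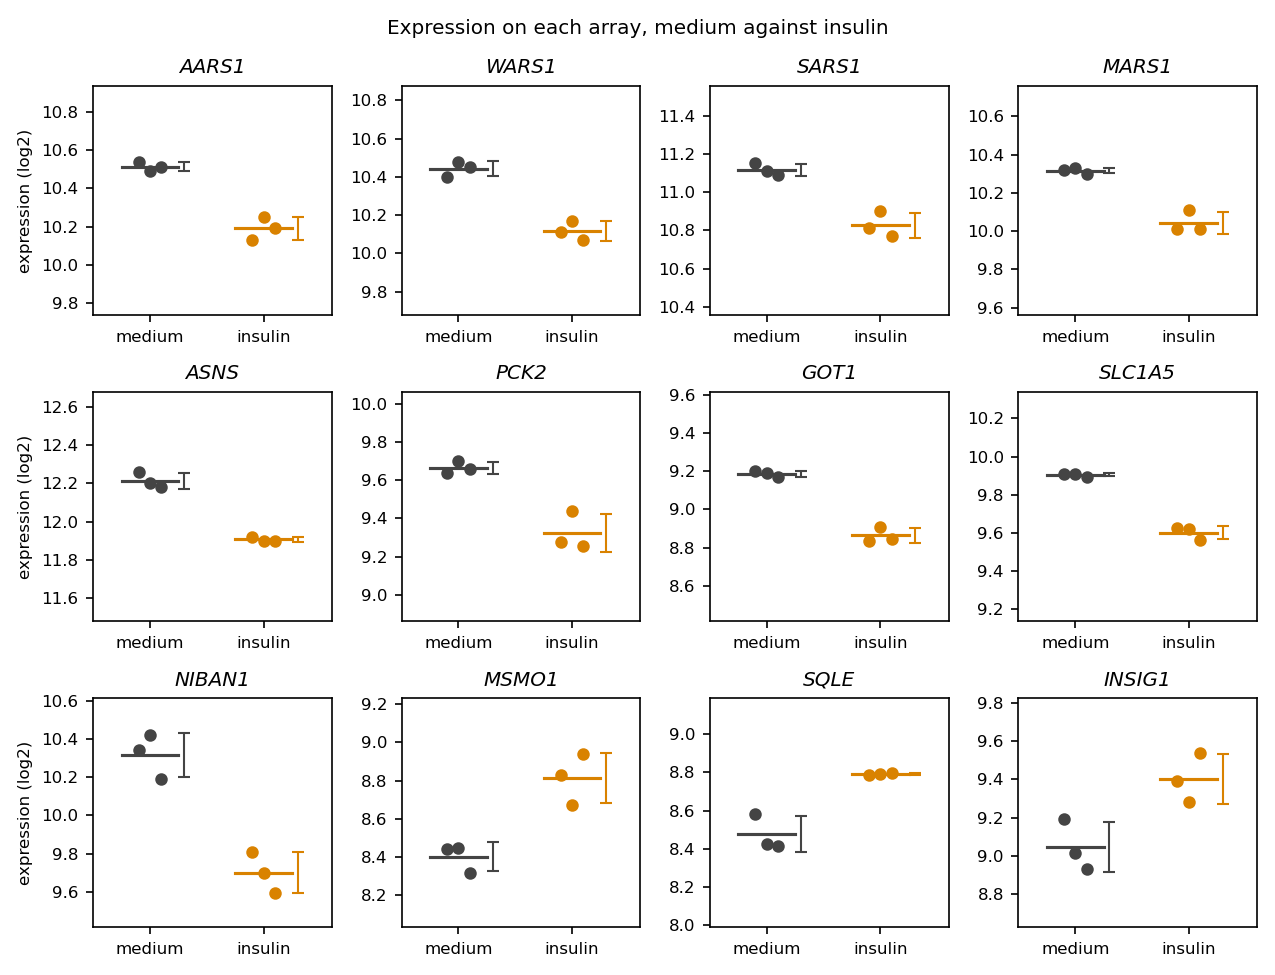
Expression on each of the 3 medium and 3 insulin arrays for 12 genes, on the log2 scale, each panel spanning the same number of log2 units on its own range. Points are arrays, horizontal bars group means and vertical bars 1 SD. The 9 genes of the amino acid response lie lower on every insulin array than on any medium array, and MSMO1, SQLE and INSIG1 lie higher.

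Promoter sequences of the 26 genes that fell were searched because ATF4 and its C/EBP partners bind a composite element. The letters TGATGNAA, its core, were looked for on both strands in RefSeq windows of assembly GRCh38.p14, from 250 bases before to 50 bases after each annotated start. Windows were at hand for 22 of the 26 genes, and 13 of the 22 held the letters in at least 1 window. Of the 50 members tested but not called, 42 had a window and 10 of these held the letters. Over all 35116 windows the share was 3.62%, and over 9981 tested genes with a window it was 2.87%. Genes with several starts have more chances: called members had 1.68 windows a gene, members not called 1.5 and all genes 1.29. The 13 were AARS1, CARS1, GARS1, IARS1, MARS1 and TARS1 among synthetases, all 4 called transporters, ASNS, GOT1 and CEBPG. The choice of lists and the motif are not independent, since several of these genes are known from this element. The upstream 120 bases of ASNS, at chr7:97872409-97872528 on the minus strand, and 30 bases around matches in genes of the other roles are shown, with the matching letters in capitals.
ASNS: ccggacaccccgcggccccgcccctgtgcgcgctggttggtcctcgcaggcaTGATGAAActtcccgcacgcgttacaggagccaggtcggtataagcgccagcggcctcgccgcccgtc
AARS1: tctaacttggcTGATGCAActgcgagaaaa
IARS1: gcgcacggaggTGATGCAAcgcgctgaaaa
MARS1: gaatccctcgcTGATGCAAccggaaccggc
SLC1A5: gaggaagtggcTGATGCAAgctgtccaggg
CEBPG: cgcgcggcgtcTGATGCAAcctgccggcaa

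The AARS1 stretch is chr16:70289675-70289704 on the plus strand, that of IARS1 chr9:92293692-92293721 on the plus strand and that of MARS1 chr12:57488053-57488082 on the minus strand. Those of SLC1A5 and CEBPG are chr19:46784893-46784922 on the minus strand and chr19:33374060-33374089 on the plus strand. The match of ASNS begins 68 bases before the annotated start, that of CEBPG 42 and that of SLC1A5 97 bases before, all on the strand of the gene, whereas the matches of AARS1, IARS1 and MARS1 lie on the opposite strand. In MARS1 it crosses the start. A match is a description of these letters and does not show binding.

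The BI group shares its medium arrays with this comparison, so its changes against medium are given side by side only. The test of a difference is BI minus insulin. Against medium, ASNS was at -2.59 log2 with BI and -0.31 with insulin, and AARS1 at -1.48 and -0.32. SLC1A5 was at -1.5 and -0.30 in the same order, and NIBAN1 at -2.05 and -0.61. ATF4 was at -0.87 and -0.02. The difference between BI and insulin was -2.28 ± 0.04 log2 for ASNS (adjusted p = 1.06e-16), -1.16 ± 0.05 for AARS1 (adjusted p = 1.18e-11), -1.20 ± 0.04 for SLC1A5 (adjusted p = 2.25e-12), -1.44 ± 0.06 for NIBAN1 (adjusted p = 1.28e-11) and -0.85 ± 0.03 for ATF4 (adjusted p = 4.40e-13). In each of the 5 the BI value lay lower.

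Sterol genes moved upwards in small number. Of 20 cholesterol synthesis genes 16 were tested, 4 rose and none was called lower by limma (7 higher and none lower at an unadjusted p under 0.05), with a median of 0.09 log2 and 14 positive values. Over all genes 1.25% were called higher. The count was 3 with median centring, 2 with only the 6 arrays, by the most variable probe set, by the mean of bright probe sets or without cross-hybridizing ones, 1 without the intensity trend and 0 with spike-in centring. MSMO1, a sterol methyl oxidase, read 8.44, 8.45 and 8.32 log2 on medium and 8.83, 8.67 and 8.94 on insulin arrays, and rose by 0.41 ± 0.06 (adjusted p = 0.00309). SQLE, squalene epoxidase, read 8.58, 8.43 and 8.42 log2 against 8.79, 8.79 and 8.80, and rose by 0.32 ± 0.05 (adjusted p = 0.00534) with all 4 probe sets positive, at 0.23 to 0.37. In both genes the groups lay apart. IDI1, isopentenyl diphosphate isomerase, rose by 0.25 ± 0.05 log2 (adjusted p = 0.0245), and MVK, mevalonate kinase, rose by 0.23 ± 0.05 (adjusted p = 0.0390). HMGCS1, the synthase at the head of the route, stood at 0.17 ± 0.06 and was not called (adjusted p = 0.156), with its second probe set at -0.04. The 3 probe sets of MSMO1 were all positive, but the weakest stood at 0.09, and the gene was at 0.09 (adjusted p = 0.732) when cross-hybridizing probe sets were left out.

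Among 14 tested genes of sterol regulation and uptake, 1 rose and 1 fell, with a median of 0.07 log2. INSIG1, a sterol-regulated anchor of the SREBP escort protein, read 9.19, 9.02 and 8.93 log2 on medium and 9.39, 9.28 and 9.54 on insulin arrays, and rose by 0.36 ± 0.07 (adjusted p = 0.0115) with no overlap. NPC1, which exports cholesterol from lysosomes, fell by 0.18 ± 0.05 (adjusted p = 0.0483). The factors themselves were not called: SREBF1 stood at 0.08 (adjusted p = 0.410) and SREBF2 at 0.12 (adjusted p = 0.332). Of 25 tested fatty acid and triglyceride genes 3 rose, against 1.25% of all genes called higher. None was called lower by limma (6 higher and 1 lower at an unadjusted p under 0.05), and the list median was 0.06. That median turned to -0.02 when each gene was read by its most variable probe set and was 0.01 by the mean of its bright ones. Over all 54 bright probe sets of the list it was 0.0061, with 29 positive and 25 negative. No fatty acid gene was called in either of those readings, with only the 6 arrays, without cross-hybridizing probe sets, with spike-in centring or without the intensity trend, and 1 was called with median centring. ELOVL6, a fatty acid elongase, rose by 0.22 ± 0.05 log2 (adjusted p = 0.0420), and LPIN1, a phosphatidate phosphatase, rose by 0.15 ± 0.04 (adjusted p = 0.0464). SCD, the stearoyl desaturase, read 12.04, 12.02 and 12.02 log2 on medium and 12.12, 12.16 and 12.15 on insulin arrays and rose by 0.12 ± 0.03 (adjusted p = 0.0284), but 2 of its 4 probe sets were negative. FASN, fatty acid synthase, was at 0.16 ± 0.06, not called (adjusted p = 0.187).

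Several of these lipid calls depended on single arrays. Without medium replicate 2 and without insulin replicate 3, 2 cholesterol genes, none of the sterol regulators and none of the fatty acid genes were called. Leaving out medium replicate 3 or insulin replicate 1 also left 2 cholesterol genes, and with medium replicate 3 left out none of the fatty acid genes was called. With medium replicate 1 or insulin replicate 1 left out, 1 fatty acid gene was called. MSMO1 and SQLE kept their calls without any single array. INSIG1 lost its call with medium replicate 2 (adjusted p = 0.0759) or insulin replicate 3 (adjusted p = 0.0807) left out, and IDI1 without those and without medium replicate 3 or insulin replicate 1 (adjusted p = 0.0732 to 0.146). MVK, LPIN1 and NPC1 lost theirs when any array was left out, at adjusted p = 0.0673 to 0.146 for MVK, 0.0860 to 0.185 for LPIN1 and 0.0549 to 0.147 for NPC1. ELOVL6 kept its call only without insulin replicate 2 (adjusted p = 0.0737 to 0.216 without each other array), and SCD lost it without medium replicate 2, medium replicate 3 or insulin replicate 3 (adjusted p = 0.0635 to 0.128). The letters TCACNCCAC, the core of the sterol regulatory element, were in none of the windows of the 3 called cholesterol genes that had one, of INSIG1 and NPC1, or of the 3 called fatty acid genes. They were in 1.13% of all windows. This says only that these letters are absent from these windows.

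Of 32 tested genes of the insulin receptor and proximal signalling 2 fell (6.25% called, against 2.45% of all genes in either direction), with a median of 0.03 log2. GRB10, an adaptor that inhibits the receptor, fell by 0.19 ± 0.04 (adjusted p = 0.0295), and TRIB3, a pseudokinase that is also an ATF4 target, fell by 0.14 ± 0.04 (adjusted p = 0.0496). TRIB3 is also among the lower calls of the list of ATF4 regulators and stress factors, so its call is counted in both lists. The receptor gene INSR changed by -0.01 ± 0.05, IRS1 by 0.05 ± 0.06, IRS2 by 0.04 ± 0.05 and AKT1 by -0.01 ± 0.07, none of them called and all with overlapping groups. Of 16 tested FOXO targets and gluconeogenic genes 1 rose and 2 fell (18.75% called, against 2.45% of all genes in either direction). GADD45A, a growth arrest gene induced by stress, read 10.02, 10.06 and 10.00 log2 on medium and 9.74, 9.74 and 9.68 on insulin arrays, and fell by 0.31 ± 0.04 (adjusted p = 0.00231). TXNIP, which restrains glucose uptake, fell by 0.13 ± 0.03 (adjusted p = 0.0417) with all 5 probe sets negative, and BCL6, a repressor, rose by 0.20 ± 0.05 (adjusted p = 0.0496). PCK1, G6PC1 and IGFBP1, the classical hepatic targets, had probe sets but were too dim to be tested. The immediate early genes EGR1 and FOS stood at 0.11 (adjusted p = 0.365) and 0.22 (adjusted p = 0.183), MYC at 0.06 (adjusted p = 0.384) and DDIT4, an mTORC1 inhibitor gene, at 0.08 (adjusted p = 0.174). The call of GADD45A held without any single array. GRB10 kept its call only without medium replicate 3 or insulin replicate 2, and otherwise reached adjusted p = 0.0881 to 0.139. TRIB3, TXNIP and BCL6 each kept theirs in 1 of the 6 cases: TRIB3 and TXNIP reached adjusted p = 0.0958 to 0.268 and 0.0833 to 0.208 without each array other than insulin replicate 2, and BCL6 0.0577 to 0.270 likewise.

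Hypoxia genes were called in both directions, 3 higher and 1 lower of 29 tested, against 1.25% higher and 1.2% lower over all genes. Their median was 0.08 log2, and 0.04 over all 90 bright probe sets of the list. PPFIA4, a liprin scaffold gene, read 6.19, 6.24 and 6.47 log2 on medium and 6.60, 6.76 and 7.05 on insulin arrays, and rose by 0.50 ± 0.10 (adjusted p = 0.0169). ARNT2, a dimer partner of hypoxia factors, read 6.73, 6.68 and 6.63 log2 against 7.08, 7.18 and 7.27, and rose by 0.50 ± 0.06 (adjusted p = 0.00187). In both genes the other probe set was at under 0.10, namely 0.09 for PPFIA4 and 0.07 for ARNT2. ADM, the adrenomedullin gene, rose by 0.21 ± 0.04 (adjusted p = 0.00782), and EPAS1, which encodes HIF-2 alpha, fell by 0.27 ± 0.04 (adjusted p = 0.00403). The letters ACGTG were in a window of 1 of the 3 called genes with one, PPFIA4, while 31.8% of tested genes held them. ARNT2 and EPAS1 held their calls without any single array. PPFIA4 lost its call without medium replicate 1, medium replicate 2 or insulin replicate 3 (adjusted p = 0.0590 to 0.103) and ADM without medium replicate 2 (adjusted p = 0.0524) or insulin replicate 3 (adjusted p = 0.0544). With either of those 2 arrays left out, 1 gene of the list was called higher, without medium replicate 1 it was 2, and without insulin replicate 1 or insulin replicate 2 it was 5.

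Further lists held 1 to 3 called members. Among 24 tested NRF2 targets 3 rose (12.5%, against 1.25% of all genes called higher). All were aldo-keto reductases of steroid and carbonyl reduction: AKR1C1 by 0.25 ± 0.05 log2 (adjusted p = 0.0109), AKR1C2 by 0.20 ± 0.04 (adjusted p = 0.0211) and AKR1C3 by 0.18 ± 0.03 (adjusted p = 0.00342). These are near-identical genes whose probe sets may share signal, and the list's median was -0.01. With medium replicate 2 or insulin replicate 3 left out, 1 of the list was called higher. AKR1C3 kept its call without any single array, while AKR1C1 and AKR1C2 lost theirs with medium replicate 2 (adjusted p = 0.0700 and 0.107) or insulin replicate 3 (adjusted p = 0.0810 and 0.139) left out. Of 10 tested snoRNA host and other non-coding genes of the translation machinery 2 fell, with a median of -0.10 log2 and 8 negative values. SNHG32 read 13.02, 13.03 and 13.00 log2 on medium and 12.83, 12.86 and 12.83 on insulin arrays, and fell by 0.17 ± 0.02 (adjusted p = 0.00231). EPB41L4A-AS1, an antisense transcript, fell by 0.20 ± 0.04 (adjusted p = 0.0227), and lost its call without medium replicate 2, medium replicate 3, insulin replicate 1 or insulin replicate 3 (adjusted p = 0.0649 to 0.139). A pair of lists lay nearer the 2.45% called over all genes, with 4.17% for the G1/S transition and 4.35% for ribosome biogenesis. Of 48 genes of the G1/S transition CDK4 and CDK6, kinases partnered by D cyclins, fell by 0.19 ± 0.04 (adjusted p = 0.0241) and 0.22 ± 0.05 (adjusted p = 0.0189). Of 46 ribosome biogenesis genes NOP58 and DKC1, proteins of the box C/D and box H/ACA particles, fell by 0.14 ± 0.03 each (adjusted p = 0.0396 and 0.0475). Without medium replicate 2 or insulin replicate 3 the calls of NOP58 (adjusted p = 0.181 and 0.220), DKC1 (0.20 and 0.256) and CDK4 (0.103 and 0.139) were lost. NOP58 also lost its call without medium replicate 3 (0.0821) or insulin replicate 2 (0.0520), and DKC1 and CDK4 theirs without medium replicate 1 (0.120 and 0.0623) or insulin replicate 1 (0.108 and 0.0571). CDK6 lost its call without medium replicate 1, medium replicate 2 or insulin replicate 1 (adjusted p = 0.0564 to 0.0663).

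Pairs of related genes also parted. In the endoplasmic reticulum list of 29, MANF, a secreted stress-induced factor, rose by 0.20 ± 0.03 log2 (adjusted p = 0.00434), while XBP1, a factor of the unfolded protein response, fell by 0.18 ± 0.05 (adjusted p = 0.0445). The zinc carriers SLC39A10 and SLC39A14 were at 0.17 ± 0.03 (adjusted p = 0.0157) and -0.17 ± 0.03 (adjusted p = 0.00529). In the TGF-beta list BMP2, a ligand, fell by 0.16 ± 0.03 (adjusted p = 0.0109), and ID1, a known target of BMP signalling, rose by 0.19 ± 0.03 (adjusted p = 0.00260). The protocadherins PCDH7 and PCDH9 were at 0.43 ± 0.09 (adjusted p = 0.0280) and -0.44 ± 0.06 (adjusted p = 0.00231), the latter with 1 of 3 probe sets at 0.20. PKM, pyruvate kinase, was the sole call among 31 tested genes of glycolysis and glucose handling and rose by 0.31 ± 0.05 log2 (adjusted p = 0.00569) with all 4 probe sets positive. That share (3.23%) lay near the 2.45% called over all genes, so PKM is no result about its list. The share was 6.9% in the endoplasmic reticulum list, 7.69% in the TGF-beta list and 16.7% among 12 tested metallothionein and zinc genes. Each of these lists had 1 higher and 1 lower call, as had the 10 tested protocadherins and cadherins. MANF, SLC39A14, ID1, PCDH9 and PKM kept their calls without any single array. XBP1 was at adjusted p = 0.102 to 0.229 without medium replicate 1, medium replicate 2, insulin replicate 1 or insulin replicate 3. Without medium replicate 2 or insulin replicate 3 the calls of SLC39A10 (adjusted p = 0.0840 and 0.0776), BMP2 (0.0737 and 0.0810) and PCDH7 (0.126 and 0.149) were lost as well, those of SLC39A10 and PCDH7 also without medium replicate 3 (0.0535 and 0.0642) or insulin replicate 1 (0.0515 and 0.0731).

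The remaining lists had 1 or 2 calls each. Of 17 tested p53 targets 1 fell (5.88%), and the list median was 0.04 log2. That call was GDF15, already counted among the stress factors. The shares called among interferon genes (3.57%), proteasome genes (3.70%) and respiratory chain genes (3.12%) lay near the 2.45% over all genes, so the genes below are no result about those lists. IFIT2, an interferon-induced gene, read 5.998, 6.06 and 6.21 log2 on medium and 5.59, 5.57 and 5.60 on insulin arrays and fell by 0.50 ± 0.09 (adjusted p = 0.00835), the sole call among 28 tested interferon genes, whose median was -0.01. Of 21 tested NF-kB and inflammatory genes CXCL2, a chemokine gene, fell by 0.32 ± 0.07 log2 (adjusted p = 0.0312) and PTGS2 rose by 0.24 ± 0.06 (adjusted p = 0.0401). CRY1, a repressor of the circadian clock, rose by 0.20 ± 0.05 log2 (adjusted p = 0.0334), 1 of 13 tested clock genes. The shares called were 9.52% for the NF-kB list and 7.69% for the clock list, which rest on 2 calls and 1 call. PSMD3, of the proteasome lid, rose by 0.19 ± 0.04 log2 (adjusted p = 0.0183), 1 of 27 tested. Of 64 respiratory chain genes, 49 of them positive with a median of 0.03, the complex I genes NDUFS5 and NDUFS1 were at 0.12 ± 0.03 (adjusted p = 0.0307) and -0.16 ± 0.04 (adjusted p = 0.0402), and by its most variable probe set NDUFS1 stood at 0.04. IFIT2 kept its call without any single array. PSMD3 lost its call without medium replicate 2 (adjusted p = 0.0895) or insulin replicate 3 (0.111). CXCL2 lost its own without medium replicate 1, medium replicate 2, insulin replicate 1 or insulin replicate 3 (0.0515 to 0.176), and CRY1 without medium replicate 2, medium replicate 3, insulin replicate 1 or insulin replicate 3 (0.0821 to 0.139). NDUFS5 kept its call only without insulin replicate 2 (0.0639 to 0.139 otherwise) and NDUFS1 only without medium replicate 3 (0.0619 to 0.196).

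In 6 of the 31 lists no member was called by limma: fatty acid oxidation (0 higher and 1 lower of 21 at an unadjusted p under 0.05), cytosolic heat shock genes (3 and 1 of 20), immediate early genes (3 and 3 of 36), cytosolic ribosomal proteins (9 and 1 of 65), mitosis (8 and 3 of 40) and DNA methylation and histone modifiers (1 and 5 of 63). Their medians lay between -0.0006 and 0.05 log2. Without insulin replicate 2 all 6 held calls: 3 higher and 1 lower among ribosomal proteins, 2 higher in mitosis, 1 higher each among heat shock, immediate early and histone modifier genes, and 1 lower in fatty acid oxidation. No other array left out gave a call in these lists. A gene that was not called may still have changed by less than the arrays could show.

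Families of related symbols were counted as well, and they share genes with the lists. Tested genes were grouped by the letters before the first digit of the symbol, and 152 such stems held at least 10 genes. In 96 of them no gene was called, and 4 held at least 3 calls. Solute carriers had the most, 3 higher and 7 lower of 248. Among these are SLC1A4, SLC1A5, SLC3A2 and SLC7A1 of the amino acid transporter list, and SLC39A10 and SLC39A14 of the zinc list. This stem therefore largely repeats calls given above. The risers included SLC6A6, a taurine carrier (0.27 ± 0.05 log2, adjusted p = 0.00851), and SLC5A3, an inositol carrier named after its value was seen (0.21 ± 0.05, adjusted p = 0.0285), and the fallers SLC22A15, of the organic ion carriers (-0.37 ± 0.08, adjusted p = 0.0269), and SLC35F6 (-0.24 ± 0.04, adjusted p = 0.0108). Zinc finger genes named ZNF had 3 higher calls among 303, which were ZNF75D (0.29), ZNF184 (0.26) and ZNF512 (0.22). The stem CCDC, for coiled-coil proteins, had 2 higher calls, CCDC71L (0.31) and CCDC77 (0.21), and 1 lower call, CCDC25 (-0.16). The stem FAM had FAM53B (0.46) and FAM117B (0.22) higher and FAM120AOS (-0.20) lower. Their shares called were 4.03% for SLC, 4.00% for CCDC, 2.97% for FAM and 0.990% for ZNF, against the 2.45% over all genes. Without medium replicate 2 or insulin replicate 3, 6 of these were lost alike: SLC6A6 (adjusted p = 0.0700 and 0.0600), SLC35F6 (0.0737 and 0.0776), ZNF512 (0.0577 and 0.0721), ZNF184 (0.116 and 0.149), CCDC77 (0.131 and 0.165) and FAM117B (0.0909 and 0.132). ZNF512 and CCDC77 were also lost without insulin replicate 1 (0.0515 for both) and FAM117B without medium replicate 1 (0.0512). SLC22A15 kept its call only without medium replicate 3 or insulin replicate 2 (adjusted p = 0.0600 to 0.127 otherwise), SLC5A3 only without medium replicate 2 or insulin replicate 2 (0.0802 to 0.165), and FAM53B only without medium replicate 2 or insulin replicate 2 (0.0649 to 0.176). ZNF75D kept it only without medium replicate 1 (0.0617 to 0.170) and CCDC25 only without insulin replicate 2 (0.0707 to 0.197), while FAM120AOS was lost in every case (0.0553 to 0.134).

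Outside the lists, several of the largest changes were seen in more than 1 probe set of the gene. Such probe sets are read from the same samples and are not replicates. DIO2, the deiodinase that activates thyroid hormone, read 7.27, 7.42 and 7.30 log2 on medium and 7.73 on each insulin array, and rose by 0.40 ± 0.05 (adjusted p = 0.00220) with all 5 probe sets positive. BTN3A2, a butyrophilin, rose by 0.32 ± 0.06 (adjusted p = 0.0176) with 4 of 4 positive. It was named because its probe sets had the same sign, so their agreement is set by that choice. ARG2, the mitochondrial arginase, read 7.88, 7.81 and 7.79 log2 on medium and 7.36, 7.50 and 7.40 on insulin arrays, and fell by 0.41 ± 0.06 (adjusted p = 0.00309). CSF2RA, a cytokine receptor subunit, read 7.73, 7.73 and 7.75 log2 against 7.38, 7.37 and 7.37, and fell by 0.36 ± 0.07 (adjusted p = 0.0111) with all 4 probe sets at -0.35 or below. Both genes lay lower on every insulin array. HLCS, which attaches biotin to carboxylases, fell by 0.37 ± 0.05 (adjusted p = 0.00231), but the weakest of its 3 probe sets was at -0.07. SSBP2, named for the same reason as BTN3A2, fell by 0.33 ± 0.08 (adjusted p = 0.0317) with 3 of 3 negative. Other large changes rested on 1 probe set, namely STARD9 (0.42), FGFBP1 (0.43), NANOS1 (-0.38), BEX2 (-0.55 ± 0.08, adjusted p = 0.00342), GABRE, a GABA receptor subunit (0.47 ± 0.07, adjusted p = 0.00260), B4GALNT4 (0.47 ± 0.08, adjusted p = 0.00912) and ACTR3C (0.44 ± 0.10, adjusted p = 0.0312). With a second probe set each, SYNE1, a nuclear envelope spectrin gene, fell by 0.54 ± 0.08 (adjusted p = 0.00260, the other at -0.26), FDXACB1 rose by 0.46 ± 0.09 (adjusted p = 0.0127, the other at 0.12), and VASH2 rose by 0.45 ± 0.10 (adjusted p = 0.0308, the other at -0.01). DIO2, ARG2, HLCS, STARD9, BEX2, GABRE and SYNE1 kept their calls without any single array. CSF2RA and NANOS1 lost theirs without medium replicate 2 (adjusted p = 0.0602 and 0.0524) and insulin replicate 3 (0.0615 for both), BTN3A2 also without medium replicate 3 (0.0516 to 0.116 over the 3 arrays), and SSBP2 kept its call only without medium replicate 3 (adjusted p = 0.0707 to 0.126 without each other array). FGFBP1 lost its call without medium replicate 1, medium replicate 2 or insulin replicate 3 (adjusted p = 0.0728 to 0.139). B4GALNT4 lost its own without insulin replicate 3 (0.0600), and FDXACB1 its own without that array, medium replicate 2 or insulin replicate 1 (0.0534 to 0.0842). VASH2 lost its call without medium replicate 2, medium replicate 3 or insulin replicate 3 (0.0522 to 0.143), and ACTR3C kept its call only without medium replicate 1 or insulin replicate 2 (0.0705 to 0.139 otherwise).

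The probe sets of a gene gave the same direction in most called genes. They are read from the same samples on the same arrays, so they are not replicates and their agreement is a description. Several bright probe sets were available for 110 of the 153 genes called higher and for 110 of the 147 called lower. All had the same sign in 84 (76.4%) of the former and 92 (83.6%) of the latter, against 47.9% of all tested genes with several. Taken singly, 86.9% of the other probe sets of genes called higher and 90.9% of those of genes called lower had the sign of the tested one, against 62.5% over all genes. The other probe sets of genes called higher changed by a median of 0.09 log2, while the tested ones changed by 0.21, whereas for genes called lower the medians were 0.18 and 0.20. In the fit over 27220 probe sets 336 were called (1.23%), 126 higher and 210 lower, and a second probe set was called alike in 18 genes called higher (16.4% of those with several) and in 39 called lower (35.5%). No called gene had another probe set called in the opposite direction (limma; 3 had one at an unadjusted p under 0.05). The tested probe set was chosen for brightness alone and then for its call, so a larger change in it than in the others is partly set by that choice. The difference between the directions was not tested.

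**Figure D4:**
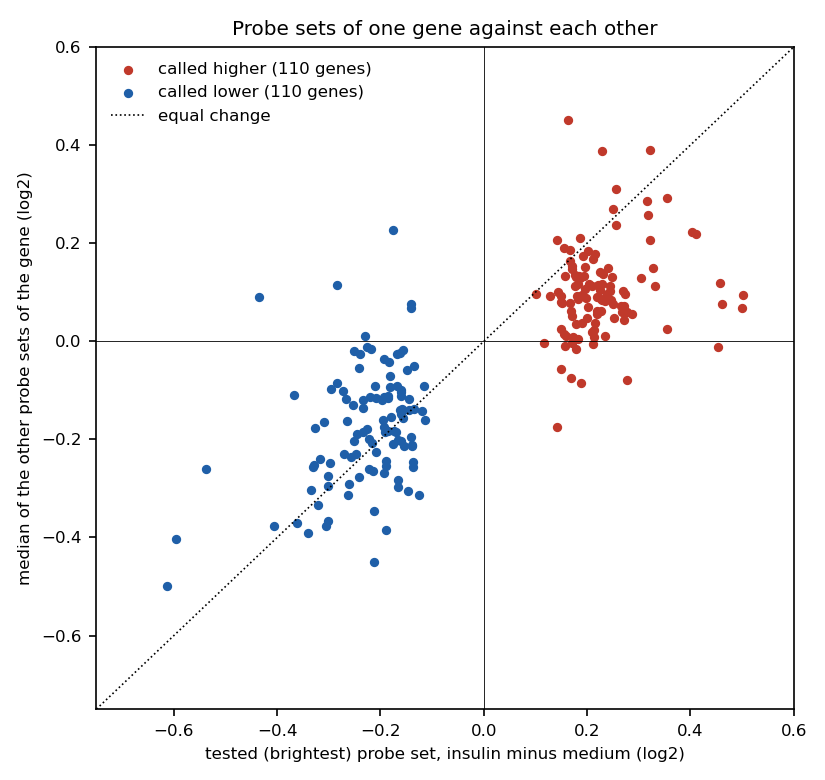
Change of the tested, brightest probe set of each called gene (horizontal) against the median change of its other bright probe sets (vertical), both insulin minus medium on the log2 scale. Red points are 110 genes called higher and blue points 110 called lower, and the dotted line marks equal change. Blue points lie around the line, and most red points lie below it.

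Of the 26 genes of the amino acid response that fell, 21 had other bright probe sets, all of 1 sign in 18, and in 15 another probe set was called lower too. SLC3A2 had 6 probe sets called lower and ASNS 4. In SLC1A4 a single probe set of 6 was positive, at 0.0006 log2, and its call was lost with medium replicate 2 (adjusted p = 0.0887) or insulin replicate 3 (adjusted p = 0.104) left out.

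By mean values a few genes stood on opposite sides of medium with the insulin preparations. Because both share the medium arrays, the test of the difference is BI minus insulin. Genes named for a rise with insulin were picked on the same insulin arrays that this test uses. Part of their difference may be set by that choice. Apart from CDK6, changes with BI against medium are given as sizes without a test. CCDC71L was at 0.31 log2 with insulin and -0.79 with BI, a difference of -1.10 (adjusted p = 6.63e-11). PTGS2, the inducible cyclooxygenase, was at 0.24 and -0.50 (difference -0.74, adjusted p = 3.63e-08), and LPIN1 at 0.15 and -0.35 (difference -0.50, adjusted p = 1.81e-08). ZNF184 was at 0.26 and -0.26 (difference -0.52, adjusted p = 9.63e-07), BCL6 at 0.20 and -0.16 (difference -0.35, adjusted p = 2.25e-05) and ID1 at 0.19 and -0.11 (difference -0.29, adjusted p = 1.83e-07). Of these, CCDC71L and ID1 kept their insulin calls without any single array, whereas PTGS2 kept its call only without insulin replicate 1 (adjusted p = 0.0681 to 0.224 without each other array). ZNF184 kept its insulin call in 4 of the 6 cases with an array left out, BCL6 in 1 and LPIN1 in none. MANF, INSIG1 and SQLE were higher with both, at 0.20 and 0.57, 0.36 and 1.78, and 0.32 and 1.11. CDK6 was called lower with insulin alone, at -0.22 against -0.10 with BI (adjusted p = 0.0793), with a difference of 0.12 (adjusted p = 0.0400).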

How the data were processed

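The authors deposited 1 value per probe set and array, read here as log2 from range and distribution. Scanner files were not used, and how arrays were summarised and normalized was not given in the sources used here. Groups came from sample titles. Of 49395 features, 44988 named 1 gene in the platform annotation, 1832 named several, 2473 had none listed and 102 were controls. Symbols were updated through the RefSeq table of GRCh38.p14. The dimmest 40% of probe sets by mean over 9 arrays (threshold 4.74 log2) were dropped, and the brightest probe set stood for each gene. All 9 arrays entered one limma model of 3 groups (limma 3.58.1, R 4.3.3; lmFit; trended eBayes; residual degrees of freedom 6) with Benjamini-Hochberg adjustment over all genes. A second fit covered all 27220 probe sets that name 1 gene and passed this filter. Folds are on the log2 scale, and the number of arrays limits the precision. The procedure was tested on simulated data. Alternatives covered the replicate block, arrays in the fit, scaling, filters, probe set choice, the variance model, thresholds and leaving out each array.

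Members and lists were chosen with earlier results of these data known. Named genes are the 12 largest rises and falls among called genes with groups apart, up to 5 called members with the lowest p per list, fixed insulin markers, up to 6 called members of stems with at least 3 calls, and called genes with the most uniform probe sets. Others were named after their values were seen. Matplotlib 3.10.9 drew the figures.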

Additional observations from a re-analysis of the deposited data

Results flagged for a closer look

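Probe sets that name several genes or none were outside the comparison by gene. In the same fit 21 of them were called: among 1035 bright ones with several genes 6 were higher and 4 lower, and among 1318 with no gene listed 8 were higher and 3 lower. The medium arrays are the control here, so each call is a level above or below theirs. No gene is named for them.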

How the results depend on the processing

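Against 300 genes and 336 probe sets called, the counts were 152 and 179 with only the 6 arrays compared, 37 and 14 without the intensity trend, 605 and 683 with array weights, 7 and 17 with arrays centred on poly-A spike-ins, 66 and 56 at adjusted p under 0.01, and 587 and 770 at adjusted p under 0.1. Median centring gave 197 genes, reading each gene by its most variable probe set 177, and leaving out cross-hybridizing probe sets 199. Leaving out 1 array gave 57 to 425 genes and 28 to 384 probe sets. Higher against lower calls were 153 and 147 in all, 55 and 97 with 6 arrays, 60.4% higher after quantile normalization, 1 and 6 with spike-in centring, and 13 and 24 without the trend. Deviations from the group mean correlated at r = 0.167, -0.01 and -0.23 between same-numbered arrays. Between unlike numbers r ran from -0.36 to 0.337. Deviations within a group of 3 sum to 0, so these values cannot decide whether the numbers mark pairs. With the replicate block 226 genes and 193 probe sets were called. Signs reversed in MARS1 (0.282) and NDUFS1 (0.0389) with the probe set of largest variance, and in VASH2 (-0.0112) without cross-hybridizing probe sets. The cause of these shifts was not tested. Of 90 named calls 32 held without any single array. Of 1877 alternative values for them, 1325 kept the call, 549 kept only the direction and 3 reversed. Signal over background is unknown here and limits dim genes.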
